A study of Mus musculus and Homo sapiens with 14 samples.

Results

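The genes described here make cholesterol and fatty acids or control that synthesis. They are 33 genes chosen by symbol from a list of pathway members: 7 of the mevalonate arm, 11 of the sterol arm, 6 of sterol sensing and its regulation, and 9 of fatty acid synthesis, elongation and desaturation. All 33 were found among the 26221 gene symbols of the mouse count table and, in capitals and with CYP51A1 for Cyp51 and SCD for Scd1, among the 27945 symbols of the human table.

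Cells build cholesterol from acetyl-CoA through the mevalonate arm and the sterol arm, and fatty acids from the same precursor. The transcription factors SREBP-1 and SREBP-2 (genes Srebf1 and Srebf2) sit in the membrane of the endoplasmic reticulum, where the escort protein Scap is held back by Insig1 and Insig2 while sterols are plentiful. When sterols run low, Scap carries the SREBPs to the Golgi, where they are cut, and the released part enters the nucleus and switches on genes of both pathways, Insig1 among them. Plasma cells, which secrete antibody from an enlarged endoplasmic reticulum, depend on membrane lipid synthesis.

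The study sequenced RNA from 14 libraries, 10 of mouse and 4 of human cells, with and without the transcription factor IRF4, a regulator on which plasma cells and myeloma depend. Splenic plasma cells came from Irf4 flox/- and Irf4 flox/+ donor marrow, 2 libraries each. The donor marrow had been transplanted with uMT marrow, which makes no mature B cells of its own, into congenically marked hosts. All hosts received tamoxifen on days 1, 2, 7 and 8 and were harvested on day 14, so the flox/+ controls were treated alike and carry 1 floxed and 1 wild-type allele. Donor plasma cells were sorted from the spleen. The labels do not name the Cre driver, the number of animals or any pooling. MPC-11, a mouse plasmacytoma line, and MM.1S, a human myeloma line, both carried Cas9, received either an Irf4 guide (labelled Irf4 -/-) or an empty vector (labelled WT), were given doxycycline and were sorted on day 3, again 2 libraries per group. Wild-type splenic follicular B cells and wild-type bone marrow plasma cells had 1 library each. All mouse libraries are labelled C57BL/6, MPC-11 included.

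The libraries held 18738283 to 27003585 counts. IRF4 itself was 489 and 434 CPM (counts scaled to a common total, the usual CPM unit, and by the trimmed mean of M-values within a comparison) in MM.1S with empty vector and 142 and 191 CPM with the guide. In MPC-11, Irf4 was 467 and 496 CPM with empty vector and 276 and 146 CPM with the guide. In spleen it was 114 and 53.8 CPM in the libraries labelled flox/+ and 82.6 and 99.8 CPM in those labelled flox/-, so the groups overlapped and the targeted transcript did not check that label. Which part of Irf4 the deletion removes is not given in the sources used here, and directions for the spleen below are those between libraries so labelled. All 7 plasma cell markers were detected in every plasma cell and line library. In spleen, 5 of the 7 were lower in the libraries labelled flox/-, where 5435 of all 11887 genes tested were lower. DESeq2 called 4 of the 7 lower, and 202 of all genes, while edgeR called 0 of both. The 7 summed to 35942 and 33160 CPM in flox/- against 78652 and 98410 CPM. Immunoglobulin genes took 58.8% and 55.4% of the counts in flox/- against 75.6% and 77.2%. Of 15 proliferation markers, 12 were higher in flox/-, where 6452 of all genes were higher. They summed to 335 and 448 CPM against 238 and 238 CPM. In spleen, markers of other cells were higher in the libraries labelled flox/-. All 12 macrophage markers were, summing to 9848 and 995 CPM against 780 and 314 CPM (scaled over all mouse libraries). None of the 12 was at 0 in these 4 libraries. All 7 T cell, 8 B cell, 2 NK cell and 4 erythroid markers tested were higher too. Nothing in the labels says that replicates are separate cultures or animals, so p-values measure the spread between these libraries, which may be technical.

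In MM.1S, more of the set was lower than higher with the IRF4 guide, and edgeR called no gene of it at the adjusted threshold. Of the 33 genes, 26 were lower with the guide and 7 were higher, while 49.3% of all 12696 genes tested were lower. The median log2 fold change of the 33 genes was -0.30, against 0.01 for all genes. By arm, 6 of 7 mevalonate genes were lower (median -0.40), as were 9 of 11 sterol genes (median -0.30), 5 of 6 regulators (median -0.22) and 6 of 9 fatty acid genes (median -0.18). The 7 that were not lower were MVK, SC5D, NSDHL, SCAP, ELOVL1, ACACA and ELOVL6, with log2 fold changes up to 0.43. The count of 26 lower was the same with median-of-ratios size factors, with library totals alone and without immunoglobulin genes.

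**Figure D1:**
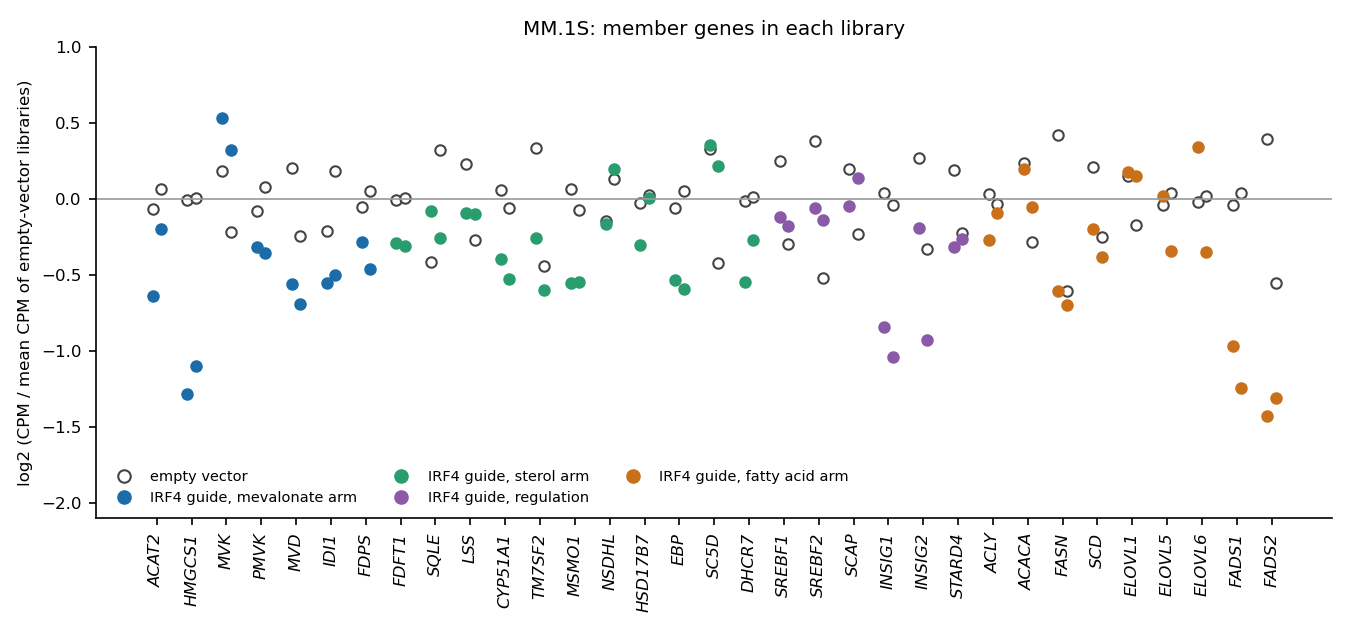
Each member gene in the 4 MM.1S libraries, as log2 of its CPM over the mean of the empty-vector libraries; open circles are empty vector (2 libraries) and filled circles the IRF4 guide (2 libraries), coloured by arm, with no error bars because each point is 1 library. HMGCS1, INSIG1, FADS1 and EBP lie below 0 in both guide libraries, apart from the empty-vector points, while SCAP lies among them and NSDHL and ELOVL6 have 1 guide point on either side of them.

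Single genes passed or missed the threshold by method. With edgeR's quasi-likelihood test, adjusted over all genes by the Benjamini-Hochberg method at 0.05, 0 of 33 were called, where the test called 0.00788% of all genes. At an unadjusted p under 0.05 it had 7 lower (4.58% of all genes) and 0 higher (5.42%). DESeq2 called 4 lower (1.41% of all genes) and 0 higher (1.54%): INSIG1, FADS1, HMGCS1 and EBP. Guide and empty-vector libraries did not overlap for 17 genes that were lower (18.9% of all genes) and 2 that were higher (22.4%).

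INSIG1, the sterol-sensing brake that keeps SCAP in the endoplasmic reticulum and is itself an SREBP target, was 2052 and 1943 CPM with empty vector and 1114 and 972 CPM with the guide. Both guide libraries were far below both controls, a 1.92-fold lower mean (log2 fold change -0.94 ± 0.16 SE; edgeR adjusted p = 0.220, DESeq2 adjusted p = 1.38e-05). HMGCS1, the synthase that makes HMG-CoA at the head of the mevalonate arm, was 61.7 and 62.4 CPM with empty vector and 25.5 and 28.9 CPM with the guide. The controls were close to each other, and the guide libraries lay at well under their level, 2.28-fold lower (log2 fold change -1.19 ± 0.23 SE; edgeR adjusted p = 0.225, DESeq2 adjusted p = 0.00162). FADS1, the delta-5 desaturase of polyunsaturated fatty acid synthesis, was 189 and 199 CPM with empty vector and 99.2 and 81.8 CPM with the guide. It was 2.14-fold lower with no overlap (log2 fold change -1.10 ± 0.21 SE; edgeR adjusted p = 0.220, DESeq2 adjusted p = 1.05e-04). EBP, the sterol isomerase of the late sterol arm, was 581 and 628 CPM against 418 and 401 CPM with the guide, 1.48-fold lower (log2 fold change -0.56 ± 0.17 SE; edgeR adjusted p = 0.343, DESeq2 adjusted p = 0.0299).

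The call for these genes turned on single libraries and settings. Without empty-vector replicate 1, edgeR called 3 of the 33 genes lower, where it called 7.26% of all genes in either direction. Without empty-vector replicate 2 it called 1, and 0.868% of all genes. Without guide replicate 1 it called 0 of the 33 and 2 of all genes, and without guide replicate 2 it called 0 of both. With no filter on low counts it called 3, and 1.71% of all genes. The number of genes lower stayed between 23 and 29 over the 4 fits that each leave out 1 library.

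Within the mevalonate arm, MVD, which makes isopentenyl pyrophosphate, was 100.3 and 73.6 CPM with empty vector and 58.9 and 53.9 CPM with the guide, without overlap. IDI1 and FDPS, which carry the isoprene units on to farnesyl pyrophosphate, had log2 fold changes of -0.52 ± 0.24 and -0.37 ± 0.17 (SE). ACAT2 (acetoacetyl-CoA formation) and PMVK had -0.40 ± 0.23 and -0.33 ± 0.19. MVK, mevalonate kinase, went the other way at low levels, 9.52 and 7.21 CPM against 12.1 and 10.5 CPM (log2 fold change 0.43 ± 0.39 SE). None of these passed edgeR's or DESeq2's adjusted threshold.

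Along the sterol arm, MSMO1, the methyl oxidase of the C4 position, was 186 and 169 CPM with empty vector and 121 in both guide libraries. CYP51A1, the demethylase of lanosterol, was 188 and 173 CPM against 138 and 125 CPM. DHCR7, the reductase that completes cholesterol, was 526 and 535 CPM against 363 and 440 CPM. FDFT1, which commits farnesyl pyrophosphate to sterols, was 497 and 502 CPM against 408 and 403 CPM. These 4 genes did not overlap between groups, and their log2 fold changes ran from -0.55 to -0.30. SQLE, LSS, TM7SF2, NSDHL, HSD17B7 and SC5D overlapped.

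Among the regulators, the SREBP genes themselves gave a different picture from INSIG1. SREBF2 was 697 and 373 CPM with empty vector and 514 and 486 CPM with the guide, and SREBF1 was 392 and 269 CPM against 304 and 292 CPM. In both genes the guide libraries lay between the controls. SCAP was 241 and 179 CPM against 203 and 231 CPM. INSIG2, the related Insig, was 103 and 67.9 CPM against 74.6 and 44.9 CPM, with overlap. STARD4, a cholesterol transfer protein, was 21 and 15.7 CPM against 14.7 and 15.3 CPM (log2 fold change -0.29 ± 0.32 SE).

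Of the fatty acid genes, FADS2, the delta-6 desaturase that works beside FADS1, was 20.4 and 10.6 CPM with empty vector and 5.75 and 6.24 CPM with the guide (log2 fold change -1.37 ± 0.45 SE; edgeR adjusted p = 0.376). FASN, fatty acid synthase, was 46.6 and 22.9 CPM against 22.8 and 21.4 CPM, a difference that 1 control library carried. SCD, the stearoyl-CoA desaturase, was 1718 and 1249 CPM against 1294 and 1139 CPM and overlapped. ACLY, which supplies acetyl-CoA from citrate, had a log2 fold change of -0.18 ± 0.18 (SE), and ACACA, ELOVL1, ELOVL5 and ELOVL6 lay between -0.15 and 0.16.

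Proliferation markers moved with the guide in the same libraries. All 15 were lower (49.3% of all genes), and DESeq2 called 7 of them lower (1.41% of all genes). Their sum was 3878 and 5200 CPM with empty vector and 2337 and 3055 CPM with the guide. The part of proliferation in the lipid genes was not tested. Beside the 33 genes, 7 related lists held 102 genes, of which 96 were tested in MM.1S. edgeR called 0 of them (0.00788% of all genes) and DESeq2 called 1 (2.95% of all genes). That gene was ABCG1, a cholesterol exporter induced by the sterol receptors LXR, at 51.1 and 37.2 CPM with empty vector and 117 and 112 CPM with the guide (log2 fold change 1.38 ± 0.24 SE; edgeR adjusted p = 0.220, DESeq2 adjusted p = 1.06e-04). LRP8, a lipoprotein receptor, was 88.7 and 123 CPM against 35.2 and 65.2 CPM, and SOAT1, which esterifies cholesterol for storage, was 97.5 and 136 CPM against 70.7 and 70.4 CPM. Both fell short of the adjusted threshold. LPIN1, a phosphatidate phosphatase that is also a coactivator, was 193 and 136 CPM against 249 and 240 CPM with the guide and missed it too. Medians of the 7 lists ran from -0.07 to 0.09, near the 0.01 of all genes.

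The promoters of the mouse counterparts of the genes DESeq2 called in MM.1S are shown for the letters that SREBP and its partners bind. They are the 250 bases before the RefSeq start on GRCm38.p6, the mm10 assembly, on the gene's strand, with Hmgcs1 at chr13:119690101-119690350 (+), Insig1 at chr5:28071162-28071411 (+) and Ebp at chrX:8193513-8193762 (-). Capitals mark each match to TCACNCCAC (a sterol response element), CCAAT (bound by NF-Y and read as ATTGG on the other strand), CACGTG (an E-box), and the interferon response element and Ets-IRF composite element, to which IRF factors bind, on both strands. No printed matches overlap.
Hmgcs1: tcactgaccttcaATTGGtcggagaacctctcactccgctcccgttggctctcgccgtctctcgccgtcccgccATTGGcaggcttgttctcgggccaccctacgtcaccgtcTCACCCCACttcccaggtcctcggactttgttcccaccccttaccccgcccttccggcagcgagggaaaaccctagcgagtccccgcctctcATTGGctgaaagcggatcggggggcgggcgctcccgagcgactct
Insig1: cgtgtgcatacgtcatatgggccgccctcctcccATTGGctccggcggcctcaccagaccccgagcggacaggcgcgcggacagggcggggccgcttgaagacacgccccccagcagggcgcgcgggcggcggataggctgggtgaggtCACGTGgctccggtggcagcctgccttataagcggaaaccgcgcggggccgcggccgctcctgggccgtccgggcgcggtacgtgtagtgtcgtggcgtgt
Ebp: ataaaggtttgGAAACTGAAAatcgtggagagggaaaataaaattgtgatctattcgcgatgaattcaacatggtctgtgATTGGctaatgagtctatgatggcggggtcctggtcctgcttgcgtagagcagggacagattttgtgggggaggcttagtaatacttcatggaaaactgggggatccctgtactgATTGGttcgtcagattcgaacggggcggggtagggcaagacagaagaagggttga

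Hmgcs1 held the sterol response element TCACCCCAC 137 bases before the start, with CCAAT boxes 237, 176 and 45 bases before it. Insig1 had a CCAAT box and an E-box, and Ebp had 2 CCAAT boxes and, 239 bases before the start, the interferon response letters GAAACTGAAA. Counted over 300-base windows (250 before to 50 after the start), 36 windows of 27 of the genes were in the table. CCAAT was in 63.9% of them and in 37.4% of all 32851 windows, and CACGTG was in 19.4% against 7.15%. TCACNCCAC was in 1 of the 36 windows (Hmgcs1), 2.78% against 1.24%. The interferon response element was in 1 (Ebp), 2.78% against 3.44%. The Ets-IRF composite element was in 2 windows, found only at Pmvk, 5.56% against 2.72%. Fads1, Stard4, Fdps, Sqle, Fdft1 and Scd1 had no promoter window there, so their promoters were not examined. These are letters in mouse windows; the human promoters were not examined.

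In splenic plasma cells, the libraries labelled Irf4 flox/- and flox/+ differed in no gene of the set past the adjusted threshold. Of 32 genes tested, 17 were higher and 15 lower in flox/-, with a median log2 fold change of 0.09, the same as the 0.09 of all genes. edgeR called 0 (0% of all genes) and DESeq2 0 (5.34%). At an unadjusted p under 0.05, edgeR had Scd1 and Scap higher (2 genes; 8.63% of all genes) and Nsdhl lower (1 gene; 3.85%). Flox/- and flox/+ libraries did not overlap for 6 genes that were higher (3059 of all 11887 genes) and 5 that were lower (2178 of all genes). Idi1 was not tested, at 0.376 CPM or less in every library.

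Scd1, a stearoyl-CoA desaturase, was 13.2 and 9.53 CPM in flox/+ and 20.3 and 35.6 CPM in flox/- (log2 fold change 1.30 ± 0.45 SE; edgeR adjusted p = 0.327). Scap was 24.6 and 20.7 CPM against 48.5 and 36.2 CPM (0.90 ± 0.34 SE; edgeR adjusted p = 0.371). In both, each flox/- library exceeded each flox/+ library. Nsdhl, a dehydrogenase of the sterol arm, was the opposite, 27.6 and 32.1 CPM in flox/+ and 17.2 and 8.34 CPM in flox/- (-1.22 ± 0.47 SE; edgeR adjusted p = 0.377). Fasn was 21.1 and 3.39 CPM against 30.7 and 50.5 CPM (1.73 ± 0.86 SE), with controls far apart from each other. Fads1 was 4.62 and 4.98 CPM against 16.9 and 5.2 CPM, so 1 flox/- library made the difference. Srebf1 (52.4 and 39.6 CPM against 53.9 and 71 CPM), Srebf2 (62.6 and 26.3 CPM against 56.3 and 81.3 CPM) and Insig2 (21.8 and 23.9 CPM against 18.4 and 16.1 CPM) complete the 8 genes with the lowest p.

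By arm, 5 of 6 regulators and 6 of 9 fatty acid genes were higher in flox/-, while 4 of 6 mevalonate and 7 of 11 sterol genes were lower. The macrophage, T cell, NK cell, erythroid, B cell, plasma cell and proliferation markers given above moved with the same libraries. B cell markers summed to 452 and 746 CPM in flox/- and 231 and 252 CPM in flox/+ (scaled over all mouse libraries). Levels of Scd1 and Srebf2 in follicular B cells are given below. The part of these cell types and of proliferation in the differences was not tested. Of 92 genes of the related lists tested, DESeq2 called 3 higher in flox/- and edgeR called 0, where DESeq2 called 3.64% of all genes higher. Scarb1, the HDL receptor, was 1.87 and 3.92 CPM in flox/+ and 54.4 and 10.5 CPM in flox/- (DESeq2 adjusted p = 0.00356). Nr1h3, the sterol receptor LXR-alpha, was 4.04 and 2.96 CPM against 63 and 7.34 CPM (DESeq2 adjusted p = 0.0137), and Gramd1a, a sterol carrier, was 23.8 and 20.9 CPM against 50.2 and 87.6 CPM (DESeq2 adjusted p = 0.0126). Scarb1 and Nr1h3 were highest in flox/- replicate 1, the library with the macrophage marker sum of 9848 CPM. In these bulk libraries, more cells of a type and more RNA per cell cannot be told apart.

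In MPC-11, as many genes of the set were higher as lower with the Irf4 guide. Of 32 genes tested, 16 were higher and 16 lower with the guide, the median log2 fold change was -0.01 (all genes -0.02), and edgeR called 0 (0.0187% of all genes). It had 0 at an unadjusted p under 0.05 (6.04%), and DESeq2 called 0 (1.49%). Guide and empty-vector libraries did not overlap for 4 genes that were higher (1805 of all 10670 genes) and 4 that were lower (1765 of all genes). Fads2 had no count in any MPC-11 library and was not tested.

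The genes called in MM.1S had these values in MPC-11. Hmgcs1 was 34.4 and 52.9 CPM with empty vector and 40.0 and 34.9 CPM with the guide. Insig1 was 19.7 in both controls and 24.2 and 14.5 CPM with the guide (log2 fold change -0.03 ± 0.47 SE). Ebp was 33.4 and 28.4 CPM against 28.7 and 35.5 CPM. Fads1 was 17.6 and 26.6 CPM against 11.7 and 17 CPM, lower without overlap (-0.63 ± 0.49 SE). The first 3 overlapped. The median SE of the set was 0.41 in MPC-11 and 0.51 in spleen, against 0.23 in MM.1S, so fold changes were measured less precisely there.

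The lowest p in MPC-11 belonged to Elovl6, an elongase of long saturated fatty acids, at 0.8 and 2.41 CPM with empty vector and 4.65 and 9.28 CPM with the guide (log2 fold change 2.11 ± 1.00 SE; edgeR adjusted p = 0.894). Tm7sf2, a sterol reductase, was 40.1 and 13.4 CPM against 10.9 and 15.4 CPM, the high value being 1 control library. Sqle, the epoxidase that starts sterol formation from squalene, was 62.3 and 70.2 CPM against 106 and 74.2 CPM, and Srebf2 was 91.3 and 161 CPM against 221 and 140.5 CPM. Insig2 (46.3 and 42.4 CPM against 32.6 and 32.9 CPM) and Pmvk (28.9 and 28.5 CPM against 18.8 and 22.3 CPM) were lower without overlap. Scd1 was 10.9 and 26 CPM against 11.4 and 11.5 CPM, its sign resting on empty-vector replicate 2: without it the log2 fold change was 0.088 in place of -0.69. Proliferation markers summed to 850 and 1074 CPM with empty vector and 505 and 643 CPM with the guide. Of the 15, 14 were lower, where 5493 of all 10670 genes tested were lower. Their part in the lipid genes was not tested in MPC-11 either. The 7 related lists had 0 calls by edgeR (0.0187% of all genes) or DESeq2 (1.49% of all genes). Among their lowest p-values were Lpin2, a phosphatidate phosphatase, at 247 and 371 CPM with empty vector and 953 and 499.8 CPM with the guide, and Por, the electron donor of the sterol oxidases, at 120.4 and 175 CPM against 366 and 239 CPM. Both were higher without overlap.

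**Figure D2:**
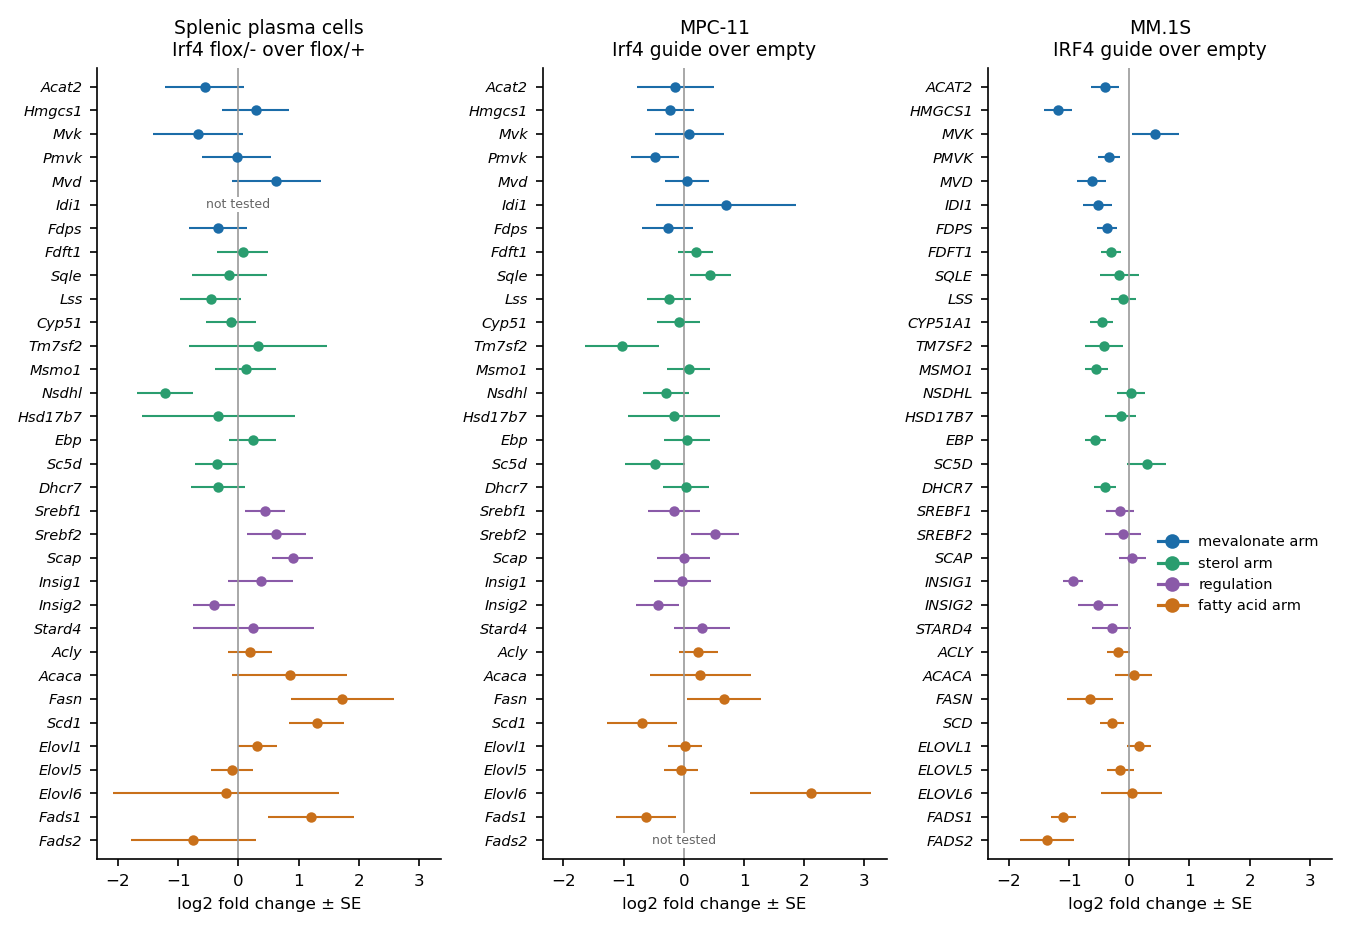
Log2 fold change with its standard error for each member gene in the 3 IRF4-targeted comparisons (2 against 2 libraries each), coloured by arm; values right of 0 are higher in the targeted libraries. In MM.1S 26 of 33 points lie left of 0 with short error bars, while splenic plasma cells (17 of 32 right of 0) and MPC-11 (16 of 32) scatter to both sides.

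Whether the Irf4 effect differed between the mouse systems was tested as an interaction over 8 libraries. edgeR called 0 of the 33 genes (0% of all genes) and DESeq2 0 (1.4%). At an unadjusted p under 0.05, edgeR had 1 (6.21% of all genes), Scd1, with a difference of -1.99 ± 0.74 (SE; MPC-11 minus spleen; edgeR adjusted p = 0.722). Fads1 had the next lowest p, with -1.83 ± 0.91 (SE; edgeR adjusted p = 0.883). MM.1S was not tested against the mouse cells, since the species were counted in separate tables, and no difference between the lines is shown by a call in 1 of them.

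The MPC-11 line and primary splenic plasma cells, compared without any Irf4 guide, differed more. The question here is how the tumour line's lipid synthesis genes compare with those of the primary flox/+ cells. Of 33 genes, 22 were higher in MPC-11; edgeR called 4 higher (12% of all genes) and 2 lower (15.6%), and DESeq2 called 9 in either direction (34.1%), so the set was called no more often than all genes. The median log2 fold change was 0.32, against -0.02 for all genes. Proliferation and cell type markers differed as well. Of 15 proliferation markers, 14 were higher in MPC-11 and edgeR called 10 higher. Of 12 macrophage markers, 9 were lower and 3 higher, and edgeR called 9 lower and 1 higher. All 7 B cell markers tested were lower, and edgeR called 5. Their part in the lipid genes was not tested.

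Of the 4 genes called higher in MPC-11, Fdft1, squalene synthase, was 60.5 and 56.6 CPM in MPC-11 against 13.9 and 18.6 CPM in flox/+ plasma cells, 3.61-fold higher (log2 fold change 1.85 ± 0.42 SE; edgeR adjusted p = 0.0172). Fasn was 64.5 and 284 CPM against 28.4 and 4.97 CPM, a wide spread in both groups (3.38 ± 0.99 SE; edgeR adjusted p = 0.0409). Tm7sf2 was 21.9 and 7.44 CPM against 1.26 and 1.24 CPM (3.55 ± 0.87 SE; edgeR adjusted p = 0.0219). Elovl1, an elongase of very long chain fatty acids, was 99.8 and 96.9 CPM against 37.7 and 42.8 CPM, 2.44-fold higher (1.29 ± 0.37 SE; edgeR adjusted p = 0.0406). In the RefSeq annotation Fdft1 overlaps Ctsb by 774 bases, Elovl1 overlaps Cdc20 by 53 and Tm7sf2 overlaps Vps51 by 9. Whether counting used strand is not given in the sources used here, so reads in those stretches cannot be assigned.

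Ebp and Fads2 were lower in MPC-11. Ebp was 18.3 and 15.8 CPM against 46.5 and 44.9 CPM, 2.69-fold lower (log2 fold change -1.43 ± 0.43 SE; edgeR adjusted p = 0.0446). Fads2 had no count in MPC-11 against 4.88 and 2.95 CPM in flox/+ cells, at least 96.5-fold lower when MPC-11 is set at 3 counts over the group (edgeR adjusted p = 0.00827). DESeq2 added Hmgcs1 (18.8 and 29.4 CPM against 9.53 and 7.29 CPM) and Elovl5 (78.7 and 88.8 CPM against 37.6 and 37.1 CPM) as higher and Sc5d (10.3 and 9.04 CPM against 31.3 and 25.8 CPM) as lower.

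**Figure D3:**
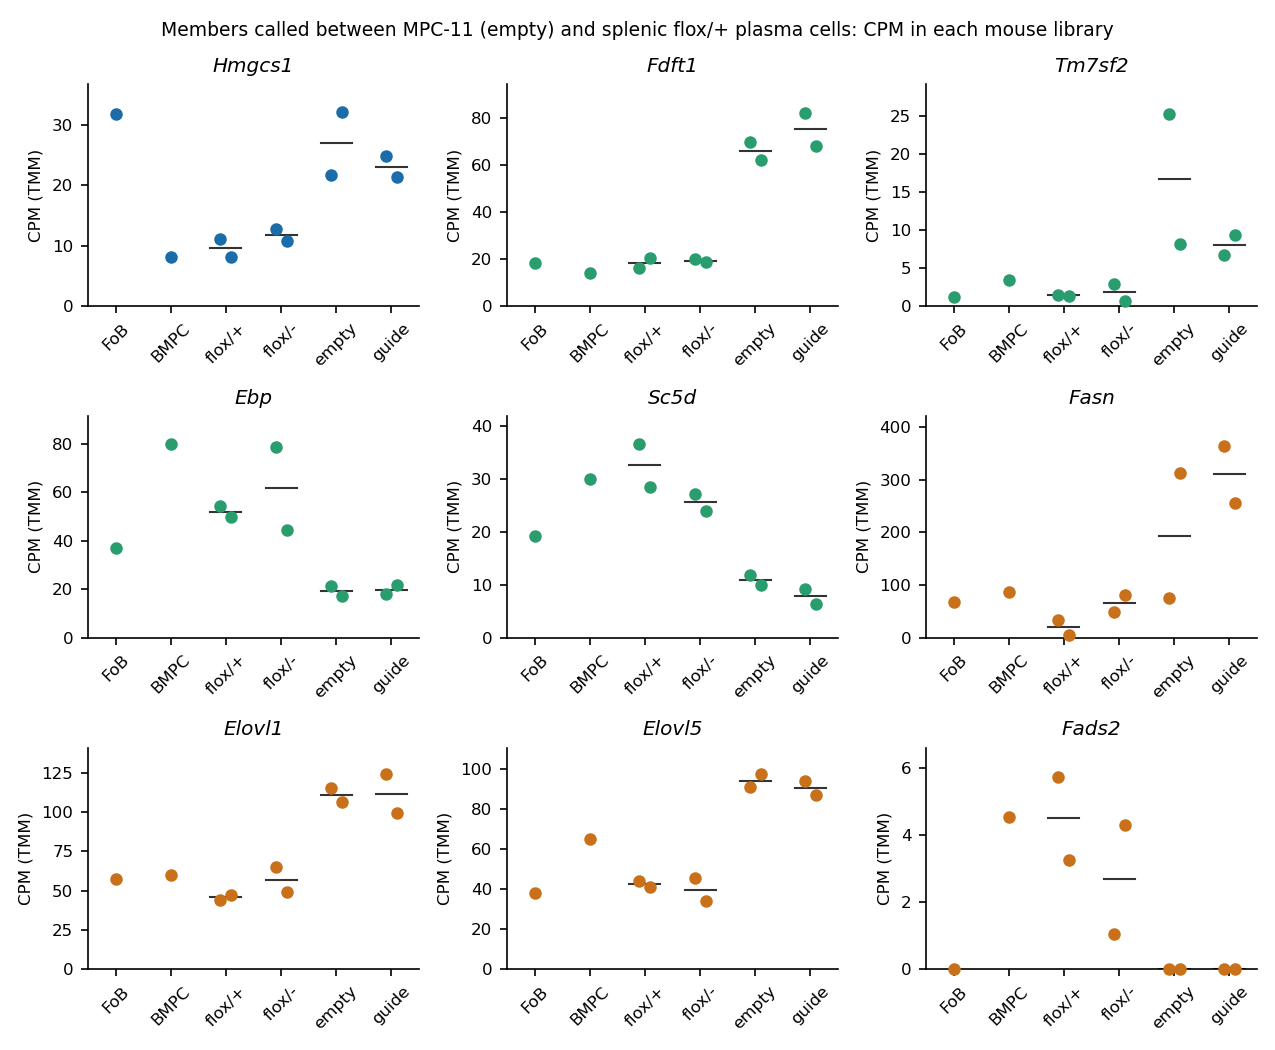
CPM, scaled over all 10 mouse libraries, of the 9 genes called by edgeR or DESeq2 between MPC-11 with empty vector and splenic flox/+ plasma cells; each point is 1 library, bars are means of 2 libraries, each axis starts at 0, FoB is follicular B cells and BMPC bone marrow plasma cells. Fdft1, Elovl1 and Elovl5 are higher in all 4 MPC-11 libraries than in the other mouse libraries, and Ebp and Sc5d lower.

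These calls rested on few libraries and on the scaling. Leaving out either MPC-11 library left 1 gene called, where 11.9% of all genes (without replicate 1) and 13.2% (without replicate 2) were called in either direction. Leaving out flox/+ library a left 3 (25.4% of all genes), and library b left 5 (20.3% of all genes). Scaled to library totals alone, 24 genes were called, 23 of them higher, where 55.7% of all genes were called, and the median of all genes then moved to 1.86 and that of the set to 2.24, and Ebp and Sc5d changed sign (0.44 and 0.29). Immunoglobulin genes took 75.6% and 77.2% of the counts of flox/+ libraries and 33.9% and 17.8% of those of MPC-11.

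In the same comparison, 94 genes of the 7 related lists were tested. edgeR called 12 higher and 8 lower in MPC-11, where it called 12% of all genes higher and 15.6% lower. DESeq2 called 21 higher and 9 lower, where it called 34.1% of all genes (1675 higher and 2230 lower of 11465). Those edgeR called higher were Rnf145, Erlin1, Lipa, Soat1, Scarb1, Tmem97, Acacb, Me1, Scd2, Hacd1, Lpin2 and Acadl. Those it called lower were Ufd1, Stard5, Mylip, Dhdds, Cyb5r3, Acss2, Fads3 and Cdipt. Of the acetyl-CoA and fatty acid supply list, 19 of 23 genes were tested, and edgeR called 4 higher and 2 lower. Me1, the malic enzyme that supplies NADPH, was 35.2 and 31.2 CPM in MPC-11 with no count in flox/+ cells, at least 283-fold higher. Acacb, the mitochondrial acetyl-CoA carboxylase, was 27.4 and 34.9 CPM against no count, at least 266-fold higher. Scd2, a related desaturase, was 307 and 518 CPM against 80.8 and 35.5 CPM (log2 fold change 2.83 ± 0.56 SE; edgeR adjusted p = 0.0102). Lipa, the lysosomal acid lipase that frees cholesterol from lipoproteins, was 614 and 567 CPM against 44 and 32 CPM (3.96 ± 0.45 SE; edgeR adjusted p = 0.00115). Mylip, the LXR target that degrades lipoprotein receptors, had no count in MPC-11 and 34.4 and 18.6 CPM in flox/+ cells, at least 654-fold lower. These bounds set the group with no count at 3 counts.

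Taken by library, the set was a small share of all transcripts. The 33 genes made up 0.157% to 0.208% of counts outside immunoglobulin genes in splenic plasma cells, 0.211% in bone marrow plasma cells, 0.333% in follicular B cells and 0.229% to 0.353% in MPC-11. In MM.1S they made up 1.08% and 0.949% with empty vector and 0.786% and 0.757% with the guide. The regulators there made up 0.360% and 0.294% with empty vector and 0.228% and 0.211% with the guide. INSIG1 alone held 43972 of 75126 and 37476 of 54928 regulator counts with empty vector. With the guide it held 21525 of 42983 and 21018 of 44144. SREBF1, SREBF2, SCAP and INSIG2 overlapped between the groups, as given above. The sterol arm made up 0.322% and 0.299% with empty vector and 0.246% and 0.254% with the guide. These shares are descriptions, and species differ in annotation.

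**Figure D4:**
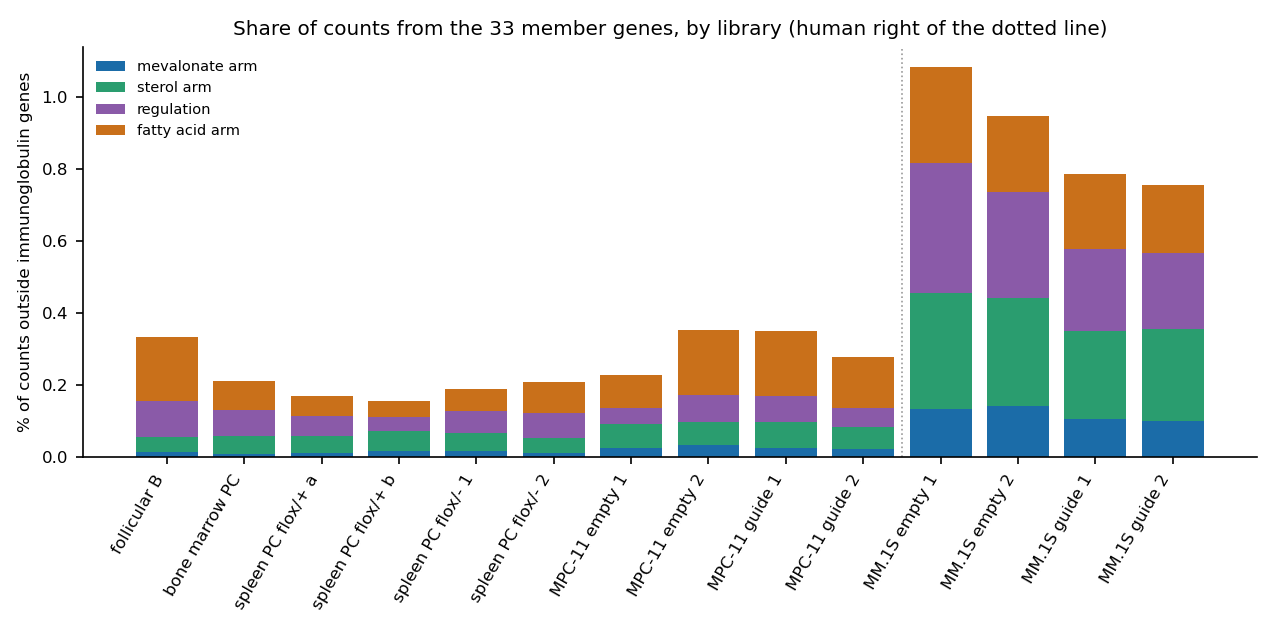
Share of counts outside immunoglobulin genes taken by the 33 member genes in each of the 14 libraries (1 bar a library, stacked by arm, axis from 0). MM.1S bars reach 0.757% to 1.08% and the mouse bars 0.157% to 0.353%, and both MM.1S guide bars are below both empty-vector bars.

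Genes were ranked by the group mean of the deposited log2 FPKM, which corrects for gene length. Scd1 was the highest of the 33 genes in follicular B cells. Ebp was highest in bone marrow and both groups of splenic plasma cells. In flox/- library 2, Acly, Srebf2, Srebf1 and Elovl1 were above it. Elovl1 was highest in MPC-11, and INSIG1 in MM.1S with empty vector. With the guide INSIG1 ranked 3 of 33, behind EBP and FDPS. In mouse groups Insig1 ranked between 16 and 24 of 33. The highest value of the mouse log2 FPKM table was the same in 7 of 10 libraries, and whether the authors normalized it between libraries is not given in the sources used here. The level of Insig1 was 3.35 log2 FPKM in MPC-11 with empty vector, and that of INSIG1 was 9.28 log2 FPKM in MM.1S with empty vector.

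Follicular B cells, with 1 library, stood apart in the desaturase genes Scd1 and Fads1 and in Srebf2. Scd1 was 541 CPM there (scaled over all mouse libraries), 34.9 CPM in bone marrow plasma cells, 15.4 to 56.7 CPM in splenic plasma cells and 6.9 to 15.8 CPM in MPC-11. Srebf2 was 336 CPM in follicular B cells, 145 CPM in bone marrow plasma cells and 42.5 to 137 CPM in all other mouse libraries. Fads1 and Fads2 had no count in follicular B cells, while Fads1 was 3.54 to 27.1 CPM in every other mouse library. Fads2 also had no count in any MPC-11 library. It was 1.04 to 5.71 CPM in splenic plasma cells and 4.54 CPM in bone marrow plasma cells. Ebp was 37.1 CPM in follicular B cells and 80.1 CPM in bone marrow plasma cells, and Dhcr7 was 25.4 and 40.8 CPM. With 1 library each, these levels have no replicate check.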

How the data were processed

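The counts per gene were deposited by the authors as 1 table per species; builds mm10 and hg38 and the tools featureCounts, Subread 1.6.0 and limma are listed, without their roles, in the submitters' processing notes. Libraries were made with a Nextera kit, per the labels' protocols. Deposited tables of log2 FPKM were used for levels between genes and for an alternative test. The strand setting of the counting is not given in the sources used here.

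Samples were grouped by their titles. Both flox/+ count columns have the same header, so these libraries are called a and b and carry no replicate number. Entries without a symbol (958 mouse, 450 human, at most 0.306% of a library's counts) were left out. Each comparison of 2 against 2 libraries was fitted over all genes with edgeR 4.0.16 in R 4.3.3 (filterByExpr with a minimum count of 10, TMM scaling, quasi-likelihood test, Benjamini-Hochberg adjustment, threshold 0.05), and checked on simulated data. SE is the log2 fold change over the square root of its F statistic. Alternatives were DESeq2 1.42.0, limma 3.58.1 on log2 FPKM, other scalings, no filter, a replicate block and leaving out each library. Depth is 18738283 to 27003585 counts; 3 counts over a group were the floor for genes with no count, covering counting error only.

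The 33 genes, the 7 related lists and the 7 marker lists were chosen with earlier results of these data known. Genes given in every library were those called by edgeR or DESeq2, and otherwise the 8 with the lowest edgeR p; genes of related lists were named only if called or among the 3 of their list with the lowest p, and not every such gene is named. Further genes in MM.1S, and those set beside them in MPC-11, were named to account for each arm after their values were seen. RefSeq tables of GRCm38.p6 gave promoters, positions and overlaps; no human annotation was used.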

Additional observations from a re-analysis of the deposited data

Results flagged for a closer look

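Some genes moved one way in every library of a mouse comparison and the opposite way in every library of MM.1S, with no overlap between groups in either. Groups without overlap were common among all genes: 3059 higher and 2178 lower of 11887 in spleen, and 1805 and 1765 of 10670 in MPC-11. In MM.1S they were 2847 and 2398 of 12696. How many of all genes were apart in opposite directions between species was not counted. None of the contrasts between species was tested, and none of the flagged genes passed edgeR's adjusted threshold in either species (DESeq2 called FADS1 in MM.1S). In spleen, Mvk was -0.67 (log2 fold change, flox/- over flox/+) where MVK was 0.43 in MM.1S (guide over empty vector). Fasn was 1.73 in spleen where FASN was -0.65, and Fads1 was 1.20 where FADS1 was -1.10. With 1 splenic library left out in turn, Fasn ranged from 0.94 to 3.58 and Fads1 from 0.12 to 1.81. FASN did not overlap between the MM.1S groups only by 22.9 CPM in empty-vector replicate 2 against 22.8 CPM in guide replicate 1. In MPC-11, Idi1 was 0.70 where IDI1 was -0.52, at under 3 CPM in each MPC-11 library, and Fdft1 was 0.20 where FDFT1 was -0.30. The splenic values moved with the macrophage, T cell, NK cell, erythroid, B cell, plasma cell and proliferation markers, and their part was not tested.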

How the results depend on the processing

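With 2 libraries per group, none of the 33 genes was called in spleen, in MPC-11 or in the interaction under any alternative run. In MM.1S the main fit called 0 of the 33 genes and 0.00788% of all genes. The calls became 4 with DESeq2 (2.95% of all genes) and 3 with no filter on low counts (1.71%). A replicate block gave 3 (1.64%), and that block in limma on log2 FPKM gave 3 (3.21%). All of these were lower with the guide. INSIG1 ranged from -1.04 to -0.85 (adjusted p from 1.38e-05 to 0.924). The median log2 fold change in MM.1S ran from -0.35 to -0.18 with a library left out. Elsewhere the replicate block changed no call of the 33 genes. Over all genes it moved edgeR calls from 1 to 208 in MM.1S and from 2 to 0 in MPC-11. In limma it moved them from 9 to 409 in MM.1S and from 0 to 384 in spleen, and left 0 in MPC-11. Deviations of same-numbered libraries correlated at 0.09 in MM.1S, -0.08 in MPC-11 and -0.01 in spleen (log2 FPKM). With 2 libraries per group, these values cannot tell whether the numbers pair the libraries. No blocked count fit was possible for spleen because the flox/+ columns carry no number. Scaled to library totals alone, the medians were 0.98 in spleen, where all genes had 0.98, -0.20 in MPC-11, and 2.24 between MPC-11 and flox/+ cells with 24 calls. limma on log2 FPKM gave a spleen median of -0.18, with and without a replicate block, beside -0.18 for all genes. Between MPC-11 and flox/+ cells, calls ran from 1 to 5 and the median from 0.077 to 0.67 with each library left out. Signs reversed for Insig2 in spleen (0.48), Ebp (0.44) and Sc5d (0.29) between MPC-11 and flox/+ cells, all with totals alone, and Scd1 in MPC-11, -1.18 to 0.088 with each library left out. Of the other values of named genes, 278 kept direction and side of the threshold, 22 passed it newly and 18 lost it. The causes were not tested.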
